A study of Strongylocentrotus purpuratus with 191 samples.

Results

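brn1-2-4 encodes a transcription factor of the POU family and was 1 of 74 genes of the sea urchin developmental network measured in purple sea urchin (Strongylocentrotus purpuratus) gastrulae. Its data came from 6 probes among 336 in the authors' normalized table, and the same 6 probes were read in the non-normalized table. The gene was chosen by its normalized values at the 3 temperatures, which earlier results of these data had shown to be higher in warmer cultures, so the differences between temperatures are given as a description with no test. Tests are given for what that choice did not use: whether the change varied between blocks or parents or with stage, and the effects of parents and stage. Total RNA of whole embryos was taken from 191 cultures of 32 crosses, grown at 12C (64 cultures), 15C (63 cultures) or 18C (64 cultures). Sampling times (unit not stated) were 36.85 to 38.12 at 12C, 27.65 to 29.05 at 15C and 22.53 to 23.77 at 18C. Sampling time therefore cannot be told apart from temperature. Each cross joined 1 of 8 females to 1 of 8 males, and every cross had 2 replicate cultures per temperature except female C4 by male D4 at 15C, which had 1. The parents formed 2 blocks, called 3 and 4, of 4 females and 4 males mated in all 16 combinations. A female and a male that carry the same name, such as A3, are separate animals. The series title names the genetics of responses to temperature stress as its subject. The blocks were each run on a plate of their own, so a difference between blocks and one between plates cannot be told apart.

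POU factors bind DNA through a POU-specific domain joined to a homeodomain, and the class that includes brn1-2-4 is best known from vertebrate nervous systems. In the purple sea urchin embryo, brn1-2-4 is transcribed in the developing gut, where it was identified as a regulator of the midgut gene Endo16 after gastrulation begins. The gut forms as the archenteron invaginates during gastrulation, so the stage of each culture is set beside its level here. In RNA of whole embryos, more cells of a type and more RNA per cell cannot be told apart.

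All 6 probes carried the same feature name in the files, brn1-2-4_ex1-S, and their sequences are shown because each probe reads a different stretch of the transcript and the probes differed in the size of their change. They are printed as the authors' table gives them. Strand and genome position were not given in the sources used here.
probe 4099: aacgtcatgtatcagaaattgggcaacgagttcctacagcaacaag
probe 2794: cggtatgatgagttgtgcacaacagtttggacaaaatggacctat
probe 3704: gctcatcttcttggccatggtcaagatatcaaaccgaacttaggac
probe 2091: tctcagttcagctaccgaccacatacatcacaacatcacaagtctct
probe 718: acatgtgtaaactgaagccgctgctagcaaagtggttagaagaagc
probe 1876: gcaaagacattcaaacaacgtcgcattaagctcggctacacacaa
The probes were 45 to 47 bases long, with a GC content between 42.2% and 45.7%, below the panel median of 47.9%. The longest run of bases that any of them shared with a probe of another gene on the panel was 10, and with another brn1-2-4 probe 7. No pair of these probes therefore reads the same stretch.

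The panel median signal before normalization was 9.88 ± 0.337 on the log2 scale over the 96 arrays of block 3 and 12.2 ± 0.153 over the 95 arrays of block 4 (mean ± SD). On the normalized log2 scale, a value of 0 is the average of that probe on its plate. The level of brn1-2-4 is the mean of its 6 probes on this scale. For arrays, the number of cultures limits the precision, and the SD between 2 replicate cultures of a cross at a temperature was 0.240.

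In the warmer cultures the level of brn1-2-4 was higher, and its distributions at the 3 temperatures overlapped. In block 3 the level averaged -0.10 ± 0.317 at 12C (lowest -0.67, median -0.15, highest 0.88), -0.05 ± 0.268 at 15C (lowest -0.69, median -0.01, highest 0.67) and 0.15 ± 0.348 at 18C (lowest -0.55, median 0.08, highest 0.89; SD, n = 32 cultures each). In block 4 it averaged -0.23 ± 0.266 at 12C (lowest -0.70, median -0.24, highest 0.21; n = 32), 0.08 ± 0.262 at 15C (lowest -0.56, median 0.15, highest 0.45; n = 31) and 0.15 ± 0.313 at 18C (lowest -0.40, median 0.22, highest 0.62; n = 32). Levels above 0 were found in 16 of 64 cultures at 12C, 37 of 63 at 15C and 41 of 64 at 18C. The cultures of each temperature thus lay on both sides of 0, and the temperatures differed in how many lay above it. The means at neighbouring temperatures differed by less than the SD over cultures in block 3 and between 15C and 18C in block 4.

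**Figure D1:**
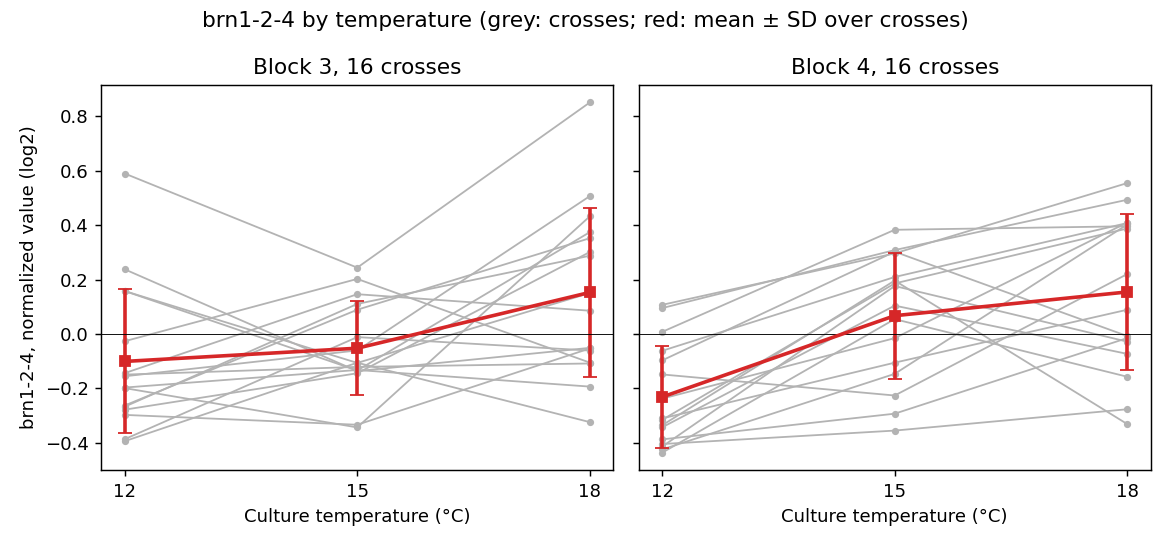
Normalized log2 level of brn1-2-4 against culture temperature in block 3 and block 4, with a grey line for the mean of each of 16 crosses per block and a red line for the mean ± SD over crosses. In block 4 the red line climbs mostly between 12C and 15C, and in block 3 mostly between 15C and 18C, while the crosses spread widely at every temperature.

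With the cross held constant over the 96 cross-by-temperature means, the level of brn1-2-4 at 18C exceeded that at 12C by 0.32 ± 0.05 on the log2 scale (estimate ± SE), which is 1.25-fold. The level at 15C exceeded that at 12C by 0.17 ± 0.05, or 1.13-fold, and the level at 18C exceeded that at 15C by 0.15 ± 0.05, or 1.11-fold. Of the 32 crosses, 29 had a higher level at 18C than at 12C, 25 at 15C than at 12C and 22 at 18C than at 15C. A higher level at each of the 2 steps was found in 15 crosses, 5 of block 3 and 10 of block 4. The comparisons share the cultures of each temperature and so are not independent of each other.

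The crosses ranged widely in their change. The change of 18C over 12C ran from -0.29 to 0.83 over the 32 crosses, with a median of 0.35. The cross of female C4 with male A4 had the highest change, at a level of 0.40 at 18C and -0.42 at 12C. The 3 crosses that were lower at 18C all belonged to block 3. They were female C3 by male C3, with -0.05 at 18C against 0.24 at 12C, female A3 by male A3, with -0.11 at 18C against -0.03 at 12C, and female B3 by male A3, with 0.15 at 18C against 0.16 at 12C. Of these, the crosses of male A3 differed between 18C and 12C by less than the SD between replicate cultures.

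In the deposited normalized values, the steps differed between the blocks in size. The change of 18C over 12C was 0.25 ± 0.07 in block 3 (13 of 16 crosses higher) and 0.39 ± 0.06 in block 4 (16 of 16 crosses higher). From 12C to 15C the change was 0.05 ± 0.07 in block 3 (10 of 16 crosses) and 0.30 ± 0.06 in block 4 (15 of 16 crosses). From 15C to 18C it was 0.21 ± 0.07 in block 3 and 0.09 ± 0.06 in block 4, with 11 of 16 crosses higher in each. The test of a temperature response that differs between blocks did not pass (limma F = 3.67 on 2 df, adjusted p = 0.134 over 74 genes, of which 16.2% passed). With the arrays of the non-normalized table centred, the same limma test gave F = 0.782 (adjusted p = 0.774). Quantile normalized, that table gave F = 0.320 (limma adjusted p = 0.978).

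The place of a culture on the assay plate nearly followed its temperature, and this limits every comparison between temperatures. Plate rows A and B held 24 cultures each, all from 12C. Row C held 16 cultures from 12C and 8 from 18C, rows D and E held 23 and 24 from 18C, and rows F, G and H held mainly 15C (20, 22 and 20 cultures). Only row C therefore held both 12C and 18C, and no row held both 12C and 15C. On each plate the 12C cultures of row C were sampled later than all those of rows A and B. Its 18C cultures were all sampled before the mean time of the 18C cultures of their block. Their mean stage in row C was lower than that of the 12C cultures in both blocks, the reverse of the block means. Row C thus set late 12C cultures against early 18C cultures. In row C of block 3 the level was -0.07 ± 0.464 in the 4 cultures from 18C and 0.06 ± 0.375 in the 8 cultures from 12C. In row C of block 4 it was -0.19 ± 0.232 in the 4 cultures from 18C and -0.24 ± 0.296 in the 8 cultures from 12C (SD). Over these cultures 18C minus 12C was -0.04 ± 0.14, a value with no cross held constant. With plate row as a block over all 191 cultures, 18C minus 12C was 0.07 ± 0.12 and 15C minus 12C was -0.12 ± 0.15. The rows that held both 15C and 18C gave 18C minus 15C as 0.21 ± 0.09, with no cross held constant. Over all rows it was 0.15 ± 0.05. Rows F, G and H held only 4, 2 and 3 cultures from 18C, and row D only 1 from 15C. In row D of block 4, with 11 cultures from 18C and 1 from 15C, the difference was -0.32. In the other shared rows it lay between 0.05 and 0.57.

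Cultures of row C came from some crosses only, so their values were also taken as deviations from the mean of their cross. In row C of block 3 the mean deviation was 0.01 at 18C and 0.01 at 12C, and in row C of block 4 it was 0.02 at 18C and -0.20 at 12C. With the cross held, row C thus showed a gap in block 4 about as large as the SD over its cultures (0.222 at 18C and 0.218 at 12C), and none in block 3. Among cultures of 1 temperature the row means differed too. Within a temperature the rows mostly followed sampling time, so row, sampling time and stage cannot be told apart in these means. At 18C the rows with at least 4 cultures averaged between 0.01 and 0.22 in block 3 and between 0.02 and 0.21 in block 4. At 12C they averaged between -0.14 and 0.01 in block 3 and between -0.26 and -0.20 in block 4. How much of the difference between 12C and the warmer cultures goes with plate row cannot be told apart from temperature outside row C.

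**Figure D2:**
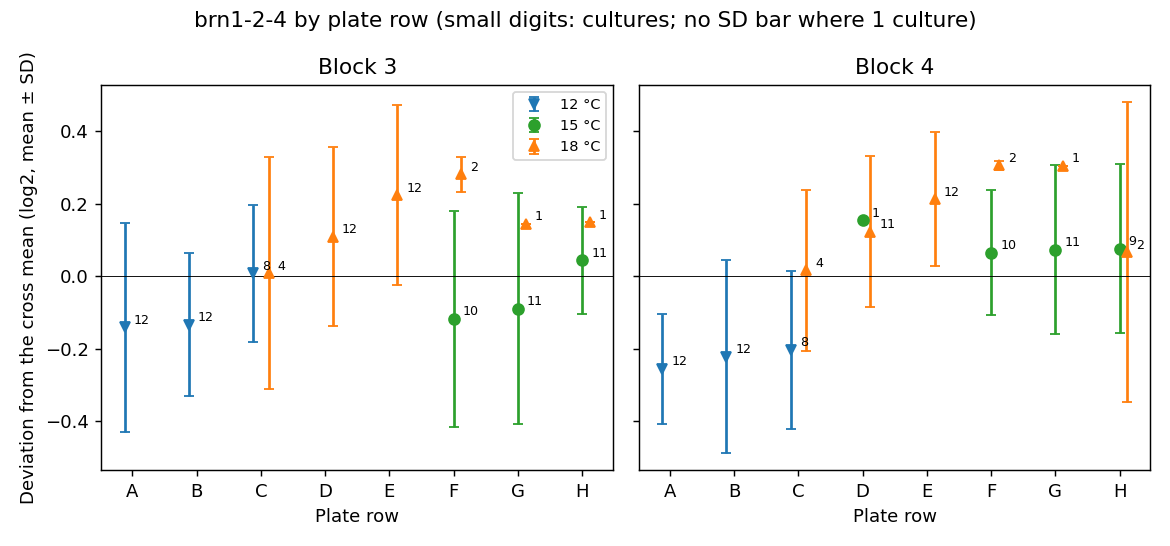
Level of brn1-2-4 as the deviation from the mean of its cross (log2, mean ± SD over cultures), by plate row A to H, in block 3 and block 4, with a colour and shape for each temperature and the number of cultures beside each point. Rows A and B hold only 12C cultures, row C holds both 12C and 18C, where the average is 0.01 at both temperatures in block 3, and 0.02 at 18C against -0.20 at 12C in block 4.

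Each of the 6 probes had a higher mean at 18C than at 12C, by amounts that differed between the probes. Probe 3704 had the highest change, at 0.59 ± 0.11, with 28 of 32 crosses higher. Probe 4099 had the lowest, at 0.16 ± 0.06 and 23 crosses. The other 4 probes lay between them: probe 2794 at 0.34 ± 0.13 (24 crosses), probe 718 at 0.31 ± 0.09 (23 crosses), probe 1876 at 0.29 ± 0.06 (27 crosses) and probe 2091 at 0.22 ± 0.06 (27 crosses). All 6 probes were higher at 18C in 13 of the 32 crosses. From 12C to 15C the probes changed by 0.06 (probe 4099) to 0.42 (probe 3704), and from 15C to 18C by 0.08 (probe 2091) to 0.21 (probe 718).

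Probe 3704 also differed most between the blocks. In block 4 its values had a mean of -0.52 and a median of -0.26 at 12C (lowest -2.86, highest 0.68), a mean of 0.23 and a median of 0.29 at 15C (lowest -1.03, highest 1.54) and a mean of 0.29 and a median of 0.39 at 18C (lowest -1.23, highest 1.48). The low tail at 12C lay outside the range of the other temperatures, and the rest of the values overlapped. Its change of 18C over 12C was 0.81 ± 0.18 in block 4 and 0.38 ± 0.10 in block 3. Probe 4099 was lower at 15C than at 12C in block 3, at -0.11 ± 0.08, and higher in block 4, at 0.23 ± 0.08. In limma, 0 of the 6 probes passed the test of temperature by block, against 9.82% of all 336 probes. The unadjusted p was under 0.05 for 2 of them, probe 3704 (adjusted p = 0.0764) and probe 4099 (adjusted p = 0.109), beside 87 of all 336 probes. Without probe 3704 the gene's change of 18C over 12C was 0.27 ± 0.05, and leaving out any other probe gave values from 0.32 to 0.35.

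**Figure D3:**
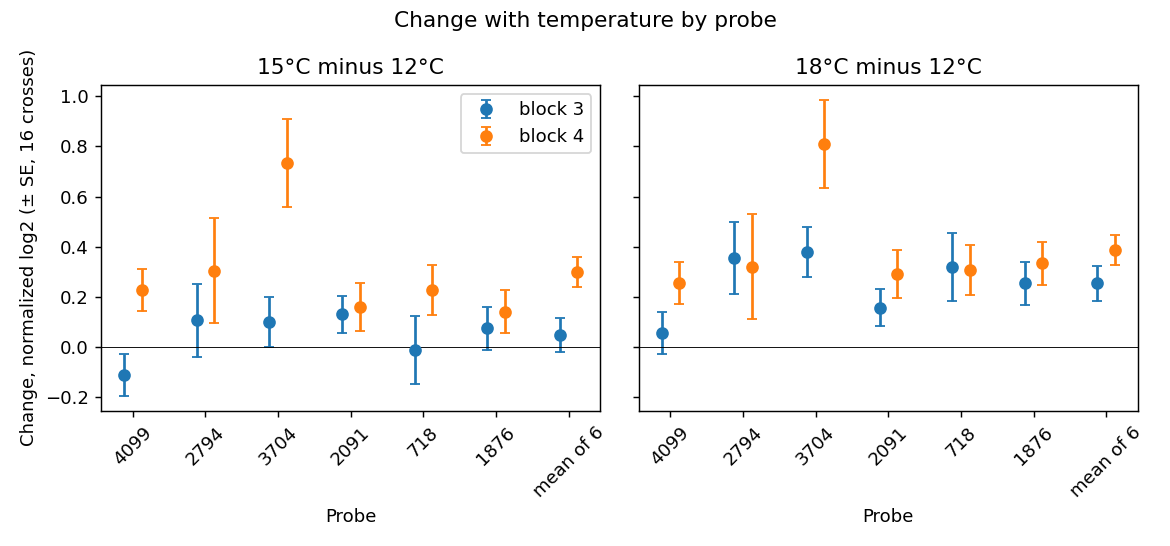
Change of each brn1-2-4 probe and of the mean of 6 on the normalized log2 scale (± SE over 16 crosses), for 15C minus 12C and 18C minus 12C, in block 3 (blue) and block 4 (orange). All 6 probes lie above 0 for 18C minus 12C in both blocks, and probe 3704 in block 4 stands highest at 0.81.

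The 2 probes with the highest estimates, 3704 and 2794, were also the nearest to background. In the non-normalized table, where a probe counted as detected when under 0.05 of the array's 27 negative controls reached its value, probes 2794 and 3704 were detected on 88.5% and 91.7% of the 96 arrays of block 3. In block 4 they were detected on 67.4% and 75.8% of 95 arrays, and each of the other probes on at least 96.8%. Detection of these probes differed between temperatures. Probe 3704 was detected on 26 of 32 arrays at 12C, 31 of 32 at 15C and 31 of 32 at 18C in block 3, and on 19 of 32, 26 of 31 and 27 of 32 in block 4. Probe 2794 was detected on 25, 29 and 31 of 32 arrays in block 3, and on 18 of 32, 22 of 31 and 24 of 32 in block 4. These also were the noisiest probes, with an SD between replicates of 0.634 for probe 3704 and 0.633 for probe 2794, against 0.298 to 0.410 for the others.

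Before normalization the mean intensity of the 6 probes in block 3 was 8.95 at 12C, 9.41 at 15C and 9.60 at 18C, while the panel median was 9.65, 9.95 and 10.0. The signal of the whole panel in block 3 was thus lower at 12C too. Relative to the panel median of its array, brn1-2-4 stood at -0.71 at 12C, -0.55 at 15C and -0.42 at 18C in block 3. In block 4 the panel median was 12.2 at each temperature, and brn1-2-4 stood at -1.19, -0.92 and -0.84 relative to it. On this scale the step from 12C to 15C was the larger one in both blocks, unlike the normalized values of block 3. With each array of the non-normalized table centred on its median, the change of 18C over 12C was 0.32 ± 0.04, the same size as in the normalized table.

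Probes of the gene moved together only in part. Over the 191 cultures, the correlation between probes ran from 0.08 (probes 4099 and 2794) to 0.54 (probes 718 and 1876) over 15 pairs, with a median of 0.294. With array medians removed, the median was 0.186, and for deviations within a cross and temperature it was 0.138. Probes of an array share its RNA and its overall signal, so these values are descriptions only.

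Mothers differed in the brn1-2-4 level of their offspring. The offspring of female A3 averaged 0.19 ± 0.25 above the mean of their block and temperature, those of B3 0.06 ± 0.03, those of D3 -0.11 ± 0.09 and those of C3 -0.14 ± 0.12 (SD over 4 crosses). In block 4 the offspring of female B4 averaged 0.17 ± 0.22, those of D4 0.08 ± 0.15, those of A4 -0.05 ± 0.07 and those of C4 -0.20 ± 0.12. The gap between the highest and the lowest female was 1.26-fold among those of block 3 and, among those of block 4, 1.29-fold, about the size of the change between 12C and 18C. Neighbouring females in each order differed by less than the larger SD over their crosses, except that D3 lay below B3 in block 3 and C4 below A4 in block 4. The dam effect passed the test over 32 cross means (limma F = 7.32 on 6 df, adjusted p = 0.000612), as it did for 81.1% of the 74 genes. With the culture stage of the cross in the model it was F = 5.28 (adjusted p = 0.00567), and over 20 alternatives the adjusted p ran from 3.23e-05 to 0.118, the highest at 18C alone.

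The range over fathers was narrower than over mothers, and the 2 ranges were not tested against each other. The offspring of male C3 averaged 0.13 ± 0.31, of B3 -0.00 ± 0.11, of D3 -0.03 ± 0.11 and of A3 -0.10 ± 0.17 in block 3. Those of male A4 averaged 0.12 ± 0.20, of C4 0.03 ± 0.22, of D4 -0.01 ± 0.18 and of B4 -0.14 ± 0.16 in block 4 (SD over 4 crosses). Each gap between neighbouring males was smaller than the larger SD over their crosses, and the whole range came to 1.18-fold for the males of block 3 and 1.20-fold for those of block 4. The sire effect passed narrowly (limma F = 3.07 on 6 df, adjusted p = 0.0357), as it did for 75.7% of genes. It did not pass without replicate 2 (F = 0.922, adjusted p = 0.626), without probe 4099 or without probe 3704, and over 20 alternatives its adjusted p ran from 0.00340 to 0.824. Of the 6 probes, 4 passed for dam (2091, 4099, 3704 and 718), against 61.3% of all probes. For sire 2 passed (3704 and 2794), against 51.8% of all probes. These were the 2 probes nearest to background, and the other 4 had an adjusted p for sire from 0.256 to 0.427 in limma.

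**Figure D4:**
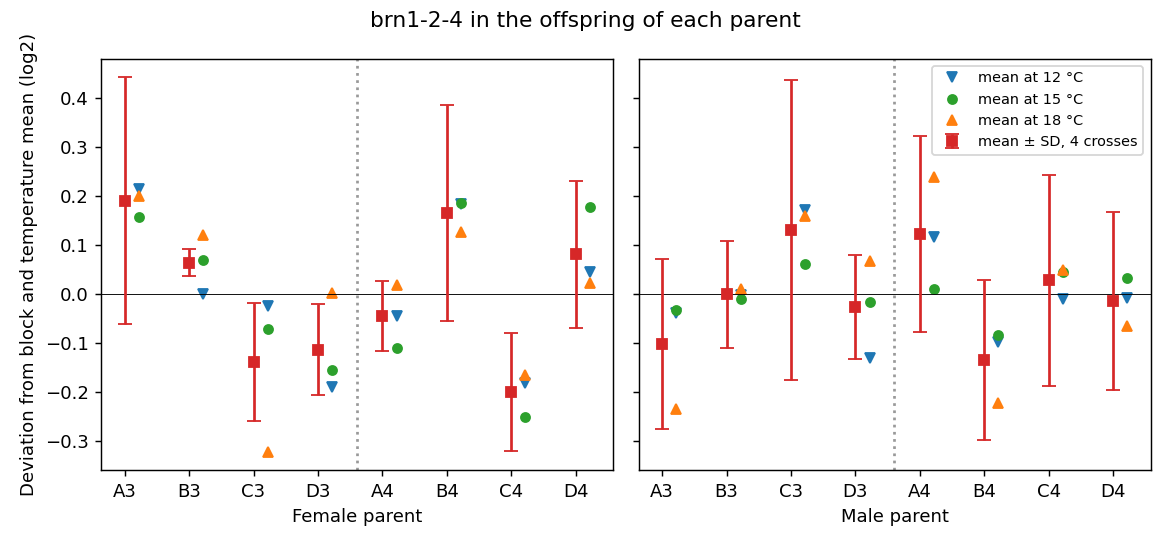
Mean level of brn1-2-4 in the offspring of each female (left) and each male (right), as the deviation from the block and temperature mean on the log2 scale. Red squares with bars are the mean ± SD over 4 crosses, the small symbols are the means at each temperature, and a dotted line divides block 3 from block 4. The offspring of females A3 and B4 lie above 0 and those of C3 and C4 below 0 at all 3 temperatures.

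Differences between parents in the temperature change did not pass a test. The 4 crosses of female C3 averaged -0.04 ± 0.17 for 18C minus 12C, with 3 of 4 crosses higher, and the means of the other 7 females lay between 0.24 and 0.45 (SD over 4 crosses). The negative mean of female C3 rested on her cross with male C3, at -0.29. Her other crosses ran from 0.0035 (male D3) to 0.07 (male A3). The mean over the crosses of male A3 was 0.06 ± 0.14, and male A4 had the highest at 0.51 ± 0.22. Dam by temperature gave F = 1.08 (limma, 12 df, adjusted p = 0.760) and sire by temperature F = 0.970 (adjusted p = 0.996). Of the 74 genes, 0% passed either test, and an unadjusted p under 0.05 was found for 7 genes in the dam test and 2 in the sire test. Of the variance that remained once temperature and block were fitted, females took 21.3%, males 6.76%, the female-by-male pairing 4.34%, the female-by-temperature term 0.243%, the male-by-temperature term 0%, the remaining spread among cross-by-temperature combinations 6.74% and differences between replicate cultures 60.6%.

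In a fit with terms for cross and temperature, the slope of brn1-2-4 on the stage score was positive but did not pass the adjusted threshold. The labels give a mean and an SD of a culture stage score, with no scale stated, and here a higher score is called more advanced. The slope was 1.00 ± 0.35 log2 units per unit of score (95% confidence interval 0.31 to 1.68), in a fit of all 191 cultures that also held cross and temperature. Its adjusted p over all genes was 0.0930 in limma (unadjusted p = 0.00448), and 1.35% of genes passed, with 7 at an unadjusted p under 0.05. In the 95 pairs of replicate cultures, the slope was 1.13 ± 0.45 (adjusted p = 0.0837), and the more advanced culture of the pair had the higher level in 58 of 95 pairs, by a mean of 0.08 ± 0.03 (SE).

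The slope had the same sign at each temperature, in each block and for each probe. It was 1.32 ± 0.89 at 12C, 1.15 ± 0.79 at 15C and 0.96 ± 0.64 at 18C, and the test of a slope that differs between temperatures did not pass (limma F = 1.07, adjusted p = 0.613). In block 3 it was 0.95 ± 0.51 and in block 4 1.01 ± 0.45. The 6 probes had slopes from 0.77 (probe 2091) to 1.28 (probe 718). In limma, 0 of them passed, against 0.893% of all probes, and 2 (718 and 1876) had an unadjusted p under 0.05, beside 36 of all 336 probes. The spread of stages within a culture, given as an SD, had a slope of 0.40 ± 0.75 with the mean stage in the model (limma, adjusted p = 0.827).

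Of the difference between 18C and 12C, 9.33% went with stage. The mean stage score was 0.328 at 12C, 0.359 at 15C and 0.358 at 18C over 32 crosses, and these means differed by less than the SD over crosses (0.0488 at 12C, 0.0827 at 15C, 0.0739 at 18C). The mean sampling time (its unit is not stated) was 37.5 for 12C, 28.4 for 15C and 23.1 for 18C, and the times did not overlap between temperatures. Over the 191 cultures the change of 18C over 12C was 0.32 ± 0.04, and at equal stage it was 0.29 ± 0.05. The part that went with stage, the slope times the difference in score, was 0.03 log2 units. The interval of this share was 2.94% to 15.7%, which covers the error of the slope only. With the slope taken within replicate pairs the part was 10.5% (2.22% to 18.8%). It was 5.73% without replicate 1, 5.50% and 6.18% in the non-normalized table centred by array or quantile normalized, and 8.70% without replicate 2. Higher parts were found with the brightest probe only (12.2%) and without probe 3704 (11.2%).

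The same part was 18.4% (5.80% to 31.0%) of the change of 15C over 12C and -1.64% of the change of 18C over 15C, since the score differed little between those temperatures. For 15C over 12C the part was 51.3% in block 3 (-3.89% to 106%), where the change itself was 0.05 ± 0.07, and 12.7% in block 4 (1.40% to 24.0%). By block, stage took 3.11% of the change of 18C over 12C in block 3 (-0.236% to 6.45%) and 13.5% in block 4 (1.49% to 25.5%). Among the probes the part ran from 5.18% (probe 3704) to 17.0% (probe 4099) for 18C over 12C and from 7.87% (probe 3704) to 48.0% (probe 4099) for 15C over 12C. Any error in the stage score itself was not measured, and the slope was used as fitted, with plate row not held.

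No relation was detected between the change in stage score of a cross and its change in brn1-2-4. Over 32 crosses the change in level and the change in score had a Pearson r of 0.0294 (permutation p = 0.886) and a Spearman rho of 0.0319 (permutation p = 0.871). These are two-sided tests with stage differences exchanged between crosses of a block. Without the 2 crosses farthest from the median stage difference, r was -0.153 (permutation p = 0.455). It was -0.117 within block 3 and 0.0423 within block 4, each over 16 crosses, and the adjusted p was 0.886 for each of the 4 relations. In 6 crosses, all of block 3, the score was no higher at 18C than at 12C. Their level was higher at 18C in 5 of 6, by a mean of 0.38 ± 0.27, beside 24 of 26 and a mean of 0.31 ± 0.26 in the other crosses (SD). Of those others 16 belonged to block 4, and the 10 of block 3 had a mean of 0.18 ± 0.29, with 8 of 10 higher.

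**Figure D5:**
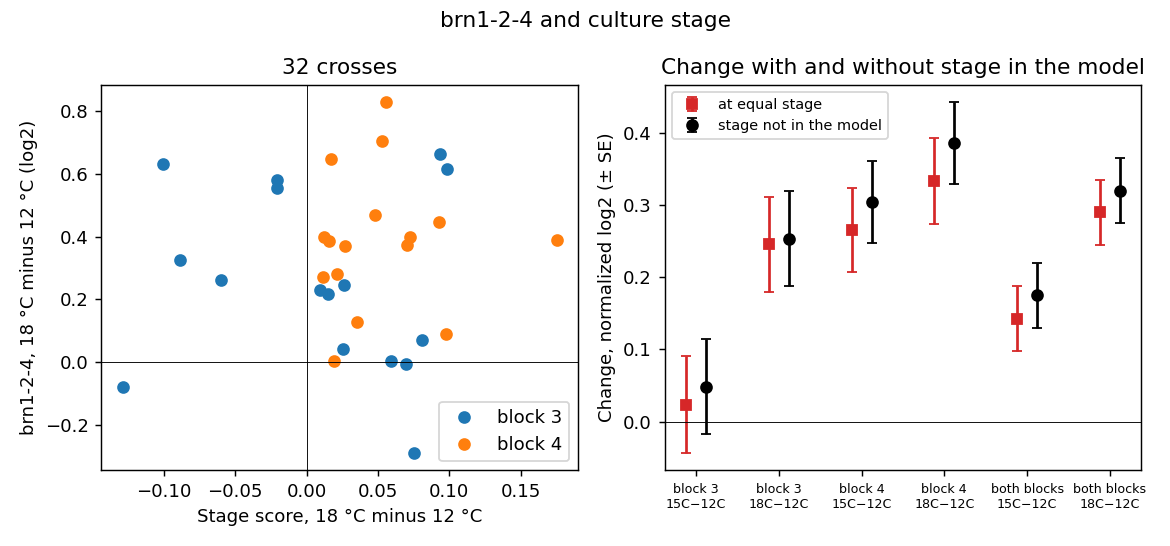
Left, change in brn1-2-4 (normalized log2, 18C minus 12C) against the change in stage score for 32 crosses of block 3 (blue) and block 4 (orange), with no trend over the crosses (r = 0.0294). Right, change of the level (± SE) with stage held equal (red squares) and without stage in the model (black circles), for 15C minus 12C and 18C minus 12C in each block and in both, where each red square lies slightly below its black circle.

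Other genes of the gut programme mostly stayed under the threshold for 18C against 12C. Of 11 other gut genes measured, limma called 1 higher at 18C than at 12C and 0 lower, and 5 had an unadjusted p under 0.05. Among these 5, gatae was lower at 18C, at -0.06 ± 0.02. Of all 74 genes, 17.6% were called, 10.8% as higher and 6.76% as lower, and 22 had an unadjusted p under 0.05. With array medians removed and in both non-normalized settings 3 were higher and 1 lower. The share of all genes called was not counted under those settings, so these counts have no panel share beside them. The gene that passed was Gelsolin, which encodes an actin-severing protein and was higher by 0.24 ± 0.07 (limma adjusted p = 0.00556) and in 25 of 32 crosses. Gelsolin did not pass without replicate 1, in block 3 alone or with culture stage as a covariate, where none of the 11 was higher. Endo16, which encodes a large secreted protein of the midgut and is the known target of brn1-2-4, changed by 0.04 ± 0.03 (limma adjusted p = 0.455), with 18 of 32 crosses higher. The median change of the 11 genes was 0.03, against 0.02 over all genes, and 8 of 11 lay above 0, against 46 of 74. For 15C against 12C and for 18C against 15C, 0 of the 11 passed and 1 had an unadjusted p under 0.05 in each comparison (limma), with 4.05% of all genes called in each. Over all 74 genes, the unadjusted p was under 0.05 for 5 and 10 genes. For parents, 9 of 11 passed for dam, beside 81.1% of all genes, and 9 for sire, beside 75.7%. For the slope on stage 0 of 11 passed in limma, beside 1.35% of all genes, and none had an unadjusted p under 0.05.

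Markers of the embryo's other tissues were counted for 18C against 12C beside the 17.6% of all genes that passed. Of 7 skeletogenic mesenchyme genes, 1 was lower, of 5 oral ectoderm genes, 2 were higher, and of 3 measured genes of pigment cells and other mesoderm and 3 of the ciliary band and nervous system, none passed. The 4 aboral ectoderm markers were not measured. The median change of each measured list lay between -0.00272 and 0.0466, against 0.02 over all genes. The summed level of the 7 endoderm markers had a median of -0.18 at 12C (-3.51 to 3.57), -0.22 at 15C (-2.27 to 3.20) and 0.12 at 18C (-2.29 to 2.65), and these ranges overlapped. The part of tissue makeup in the brn1-2-4 values was not tested.

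By likeness of pattern, APOBEC, a gene of the gut list named for a family of nucleic acid deaminases, ranked first. Over the 96 cross-by-temperature means, with array medians removed, its correlation with brn1-2-4 was 0.436, followed by deadringer (0.392), Gelsolin (0.388), FoxO (0.364) and Mitf (0.346). The median over the other genes was 0.06, and Endo16 had -0.06. In the values as deposited, the highest were APOBEC (0.623), Mitf (0.594), FoxG (0.587), deadringer (0.561) and Hnf6 (0.560), with a median of 0.343 over the other genes and 0.242 for Endo16. Among cultures, after cross and temperature were removed, Blimp1-Krox (0.674), deadringer (0.654) and FoxG (0.629) came first, with a median of 0.408. With array medians removed these were Blimp1-Krox (0.403), deadringer (0.401) and B-catenin (0.361), with a median of 0.08. All these genes were read from the same arrays, and their correlations are across combinations or cultures of shared parents.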

How the data were processed

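Transcript levels were read with Illumina's DASL method on a panel of selected genes: 2 oligonucleotides per probe anneal to cDNA, are joined, copied by PCR with labelled primers and hybridized to beads. The authors deposited normalized log2 values (with each probe's mean at 0 on each plate, as the values show) and non-normalized values whose range was read as log2 intensity. Per the submitters' processing notes, BeadStudio was used. The normalization method was not given in the sources used here. Arrays were matched to cultures through plate, row and column, and 1 array, marked poor by the submitters, has no sample in the labels and was left out. The labels do not say whether replicate cultures were separate fertilizations, so p-values over cultures may measure technical spread.

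Probe values were averaged per gene. Temperature was fitted with limma 3.58.1 in R 4.3.3 on the 96 means of a cross at a temperature (cross as a fixed block), parents on 32 cross means, and stage on 191 cultures, for all 74 genes (or 336 probes). P-values were adjusted by the Benjamini-Hochberg method, with a threshold of 0.05. Variance shares came from lme4 1.1.37 (REML), and permutation tests from python 3.11.15 with 100000 resamples. The scripts were tested on simulated data. Named genes are brn1-2-4, members of the gut list past the threshold and Endo16, and the genes of highest correlation. The gene, the lists and the tests were chosen with earlier results of these data known. The alternatives tried are other probe summaries, tables, normalizations, plate position, stage, sampling time, blocks, temperatures and replicates.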

Additional observations from a re-analysis of the deposited data

How the results depend on the processing

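The change of brn1-2-4 kept its sign and stayed within 1.5 times of its value under 20 of 22 alternatives for 18C minus 12C, 17 of 21 for 15C minus 12C and 19 of 22 for 18C minus 15C. The sign turned only with plate row. With plate row as a block, 18C minus 12C was 0.0677 and 15C minus 12C turned to -0.118. In rows with both temperatures, which set late 12C cultures against early 18C cultures, 18C minus 12C turned to -0.0403. With sampling time, which is tied to temperature, as a covariate, the change at equal stage turned to -0.32 ± 0.88. Without each replicate in turn the changes ran from 0.27 to 0.37 (18C minus 12C), 0.14 to 0.21 (15C minus 12C) and 0.06 (without replicate 1) to 0.23 (without replicate 2) for 18C minus 15C. The slope on stage ran from 0.55 (without replicate 1) to 1.02, and the dam F from 3.63 to 4.83. The dam effect did not pass at 12C alone (F = 3.07) or 18C alone (F = 2.68), and passed at 15C alone (F = 6.69, adjusted p = 0.00372); the cause was not tested. The sire F ran from 0.922 to 3.18 without each replicate, and it did not pass without replicate 2, with the brightest probe (718) only (F = 1.12), with array medians removed (F = 3.00, adjusted p = 0.0524), without probe 4099 (F = 2.67) or 3704 (F = 2.46), in block 3 (F = 3.25) or block 4 (F = 3.70) alone, or at 12C (F = 1.44), 15C (F = 0.515) or 18C (F = 2.63) alone; the cause was not tested. The slope on stage SD turned to -1.79 with the brightest probe and -0.81 in block 3, and ran from -0.40 (without replicate 1) to 0.38 (without replicate 2). The relation of the rise to the stage difference was -0.117 in block 3 alone. Higher gut genes at 18C numbered 3 with array medians removed and in both normalizations of the non-normalized table, 2 with plate column means removed, and 0 without replicate 1, in block 3 alone or with stage as a covariate. Lower gut genes numbered 1 (gatae) with array medians removed, in both non-normalized settings and with plate column means removed. For these settings the share of all 74 genes called was not counted. The replicate numbers showed no consistent pairing of the samples. Over 94 comparisons of replicate differences between temperatures of a cross, correlations over 74 genes had a median of -0.00260 (from -0.517 to 0.718). Of these, 35 were over 0.1, so pairing in some crosses was not excluded. With the replicate block, 18C minus 12C was 0.32, 15C minus 12C 0.17, 18C minus 15C 0.15, temperature by block F = 3.97 (adjusted p = 0.0786) and the slope on stage 0.82 (adjusted p = 0.565). Probes 2794 and 3704, near background in block 4, limit what these probes show singly.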
